A study of Mus musculus with 6 samples.

Results

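Fibronectin and the matricellular proteins were examined as 9 genes, Fn1, Postn, Tgfbi, Tnc, Thbs1, Thbs2, Thbs3, Comp and Cthrc1, taken by gene name from the 54532 genes of the expression table. The cells were MC3T3-E1, a mouse pre-osteoblast line that lays down and mineralizes a collagen matrix in culture, so every value describes 1 cell line. All samples were kept for 3 days in osteogenic medium, which contains ascorbic acid, β-glycerophosphate and the glucocorticoid dexamethasone. The control group, with 3 samples, received nothing more, and the metformin group, with 3 samples, also received 0.2 mM metformin, a biguanide used against diabetes. Dose, duration and the make-up of the medium were taken from the study's text, and neither dose nor duration is in the sample labels. The sample titles name the groups only as nc and met, and nc was taken as the study's group in osteogenic medium alone. The comparison asks how metformin altered the transcripts of this class of matrix proteins during osteogenic induction.

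Fibronectin is secreted as a dimer that integrins pull into fibrils, and these fibrils serve as a scaffold on which collagen and other matrix proteins assemble. Matricellular proteins sit in the same matrix but act mainly as adaptors and signals: they bind collagen, fibronectin, growth factors and cell surface receptors, and change how cells attach. In bone they are made by osteoblasts and periosteal cells during growth and repair, and several of them respond to TGF-beta or to mechanical load.

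The reads recovered from the table numbered 18399861 to 20652437 per control sample and 19256672 to 22111790 per metformin sample, and 3 reads, taken as the smallest amount that can be shown, were between 1.36e-05% and 1.63e-05% of a sample, for counting error only. Control replicate 1 stood apart from the other controls. Across genes, which are not independent replicates, its difference from the mean of control replicates 2 and 3 fell as the GC content of the longest transcript rose (Spearman's rho -0.668). All 9 osteoblast markers examined were above the test limit, with a summed level of 10078 to 11832 FPKM in the controls and 6828 to 7222 with metformin. The markers moved in both directions. By limma-trend, Col1a1 (log2 fold change 0.93, adjusted p = 0.0230) and Col1a2 (0.57, adjusted p = 0.00719) were higher. Ibsp (-1.60, adjusted p = 0.000578), Spp1 (-1.50, adjusted p = 0.000471) and Dmp1 (-0.97, adjusted p = 0.000683) were lower by the same test. The other 4, Runx2 (-0.18), Sp7 (0.36), Alpl (-0.16) and Bglap (-0.28), were not called. Without Spp1 the sum of the other 8 was 2687 to 3644 FPKM in the controls and 4125 to 4495 with metformin. Most of that sum was Col1a1, with means of 1339 in the controls and 2487 with metformin, and Col1a2, with 970 and 1444. Ibsp went the other way, from 814 to 265 FPKM, as did Dmp1, from 74.8 to 37.5 FPKM. The summed markers of other cell types were far below the osteoblast sum in both groups. For cartilage they were 29.9 to 43.5 FPKM in the controls and 29.0 to 30.8 with metformin. In the same order they were 1.77 to 3.10 and 2.09 to 2.46 for fat, and 1.20 to 2.02 and 2.33 to 2.80 for muscle. For macrophages they were 1.97 to 2.18 in the controls and 1.12 to 1.35 with metformin. Among these markers Cd68 of macrophages was called lower (log2 fold change -0.49, adjusted p = 0.0102 by limma-trend). Col10a1 of cartilage was also lower, from 3.79 ± 0.72 to 0.264 ± 0.078 FPKM (SD, n = 3, -1.91, adjusted p = 0.000206). Col10a1 passed the test limit of 0.5 FPKM only through the controls. The 3 endothelial markers summed to at most 0.121 FPKM, and Myod1, Myog and Cfd were at 0 in every sample. The part of these marker shifts in the results was not tested. In RNA of whole cultures, fewer cells that express a gene and less RNA per cell cannot be told apart.

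Tnc, Thbs2 and Tgfbi were higher with metformin, by 2.07, 1.74 and 4.29 times in mean FPKM, and 0 members were lower by limma-trend or voom, also at an unadjusted p-value under 0.05. FPKM is the number of reads scaled by the gene's length and by the library size. Of the 9 genes, 8 reached a mean of 0.5 FPKM and were tested, and 3 of these 8 passed an adjusted p-value of 0.05 as higher (limma-trend on log2(FPKM + 1), Benjamini-Hochberg adjustment over all 12681 tested genes), where 13.2% of all tested genes did. The same rule called 9.28% of all tested genes lower and 22.5% in either direction. The 3 metformin samples lay above all 3 controls for the same 3 members, where this held for 23.6% of all tested genes. The median log2 fold change of the 8 members was 0.20, beside 0.0053 over all tested genes.

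**Figure D1:**
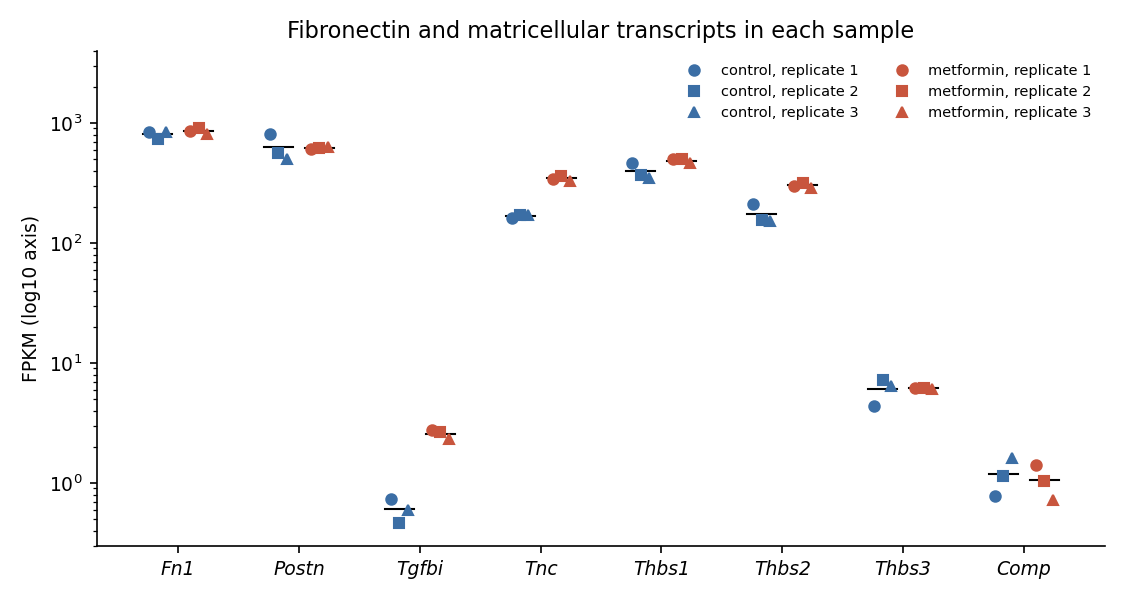
FPKM (log10 axis) of the 8 members with a mean of at least 0.5 FPKM in each sample. Blue symbols are controls, red symbols are metformin samples, the symbol shape gives the replicate and the black line is the group mean. The groups do not overlap for Tgfbi, Tnc and Thbs2, and control replicate 1 lies away from the other controls for Postn, Thbs1, Thbs2 and Thbs3.

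The members covered a wide span of levels. In the controls Fn1 had the highest mean (806 ± 62.5 FPKM, SD, n = 3), followed by Postn (626 ± 160), Thbs1 (395 ± 63.4), Thbs2 (173 ± 33.5), Tnc (167 ± 4.29), Thbs3 (6.02 ± 1.49), Comp (1.18 ± 0.43), Tgfbi (0.601 ± 0.14) and Cthrc1, which was listed at 0. Neighbours in this order whose samples overlapped were Fn1 with Postn and Thbs2 with Tnc. With metformin Tnc moved ahead of Thbs2 and Tgfbi ahead of Comp, and no neighbours overlapped. When FPKM was computed per length of the longest transcript, an alternative chosen after seeing the data, the order of the genes was the same in both groups, but Tnc and Thbs2 then overlapped with metformin. By rank among all 54532 genes, Fn1 was at place 32 in the controls and 30 with metformin, and Postn was at 38 and 44. Tnc went from place 207 to 86 and Thbs2 from 200 to 108. The 9 genes together took 2.01 ± 0.19% of all recovered reads in the controls (SD, n = 3, lowest 1.85%, highest 2.22%) and 2.32 ± 0.061% with metformin (lowest 2.26%, highest 2.38%).

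Fn1, the most abundant transcript of the 9 members, did not pass the test. Fn1 (chromosome 1, 71585520 to 71653200, minus strand, overlapped by Apol7d on the other strand) had 836, 735 and 848 FPKM in control replicates 1, 2 and 3 and 866, 913 and 810 FPKM in metformin replicates 1, 2 and 3. The groups overlapped, since metformin replicate 3 lay below control replicates 1 and 3. Its log2 fold change was 0.099 (standard error 0.11, 95% interval -0.16 to 0.36, adjusted p = 0.558 by limma-trend). Fn1 alone took 0.959 ± 0.083% of the reads in the controls and 1.01 ± 0.047% with metformin (SD, n = 3).

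Tenascin-C is a large hexameric glycoprotein that binds fibronectin and weakens the attachment of cells to it. Tnc (chromosome 4, 63959785 to 64047015, minus strand, overlapped by 8030451A03Rik on the other strand) had 162, 170 and 169 FPKM in control replicates 1, 2 and 3. In metformin replicates 1, 2 and 3 it had 345, 363 and 330 FPKM. All 3 metformin samples were close to each other and far above the controls, and control replicate 1 was no exception here. The log2 fold change was 1.04 (standard error 0.087, 95% interval 0.84 to 1.25, adjusted p = 0.000407), between 1.01 and 1.08 when each sample was left out in turn. Tnn, which encodes tenascin-W, a relative found mainly in bone and tumour stroma, went from 51.4 ± 3.17 to 104 ± 8.10 FPKM (SD, n = 3, log2 fold change 1.00, adjusted p = 0.000753). It was the only one of 6 relatives examined that reached 0.5 FPKM, and the other five, Tnr, Tnxb, Thbs4, Stab1 and Stab2, stayed at or below 0.396 FPKM in every sample.

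The thrombospondins differed among themselves. Thrombospondin-1 and thrombospondin-2 form trimers, inhibit blood vessel growth and bind the receptors CD36 and CD47, and only thrombospondin-1 carries the short motif that activates latent TGF-beta. Thbs2 (chromosome 17, 14665500 to 14694235, minus strand) had 212, 154 and 153 FPKM in control replicates 1, 2 and 3 and 301, 317 and 286 FPKM in metformin replicates 1, 2 and 3. The groups did not overlap, and control replicate 1 was the control nearest to the metformin samples. The log2 fold change was 0.81 (standard error 0.15, 95% interval 0.46 to 1.16, adjusted p = 0.00939). Without control replicate 1 it was 0.97 (adjusted p = 0.00014), and without metformin replicate 2 it was 0.78 and no longer passed (adjusted p = 0.0522).

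Thbs1 (chromosome 2, 118111876 to 118127133, plus strand, overlapped by Gm29233 on the other strand) had 467, 372 and 347 FPKM in control replicates 1, 2 and 3. In metformin replicates 1, 2 and 3 it had 497, 499 and 461 FPKM. Control replicate 1 lay just above metformin replicate 3, so the groups overlapped. With all samples the log2 fold change was 0.31 (standard error 0.13, 95% interval -0.0100 to 0.63, adjusted p = 0.150). Without control replicate 1 it was 0.43 (95% interval 0.25 to 0.61, adjusted p = 0.00472), so the call of Thbs1 depended on that sample. Adjusted p-values ranged from 0.00472 to 0.356 over the 14 other fits run for this gene.

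Thrombospondin-3 forms pentamers and takes part in skeletal growth. Thbs3 (chromosome 3, 89215180 to 89226837, plus strand, overlapped by Mtx1 on the other strand) had 4.35, 7.24 and 6.47 FPKM in control replicates 1, 2 and 3 and 6.15, 6.18 and 6.10 FPKM in metformin replicates 1, 2 and 3. The metformin samples were almost equal and fell within the spread of the controls. The log2 fold change was 0.050 (95% interval -0.34 to 0.44, adjusted p = 0.857) and -0.13 without control replicate 1 (adjusted p = 0.151). Comp, the pentameric cartilage oligomeric matrix protein that organizes collagen fibrils in cartilage and tendon, was near the limit of the test (chromosome 8, 70373558 to 70382066, plus strand). It had 42, 71 and 95 reads in control replicates 1, 2 and 3 and 83, 67 and 42 reads in metformin replicates 1, 2 and 3, with group means of 1.18 ± 0.43 and 1.06 ± 0.34 FPKM (SD, n = 3). The log2 fold change was -0.079 (95% interval -0.52 to 0.37, adjusted p = 0.800), and its sign changed when control replicate 3 or metformin replicate 3 was left out.

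Within each sample, Thbs2 was set against Thbs1 as a ratio that does not depend on the library size. Thbs2 was 45.3%, 41.5% and 44.1% of the Thbs1 level in control replicates 1, 2 and 3. It was 60.5%, 63.6% and 62.1% of it in metformin replicates 1, 2 and 3. Control replicate 1 was not apart from the other controls in this ratio, and the groups did not overlap. The mean log2 ratio was higher by 0.51 with metformin, with an SD of 0.064 among controls and 0.036 among metformin samples (exact two-sided permutation test, p = 0.1, the smallest that 3 against 3 samples allow).

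**Figure D2:**
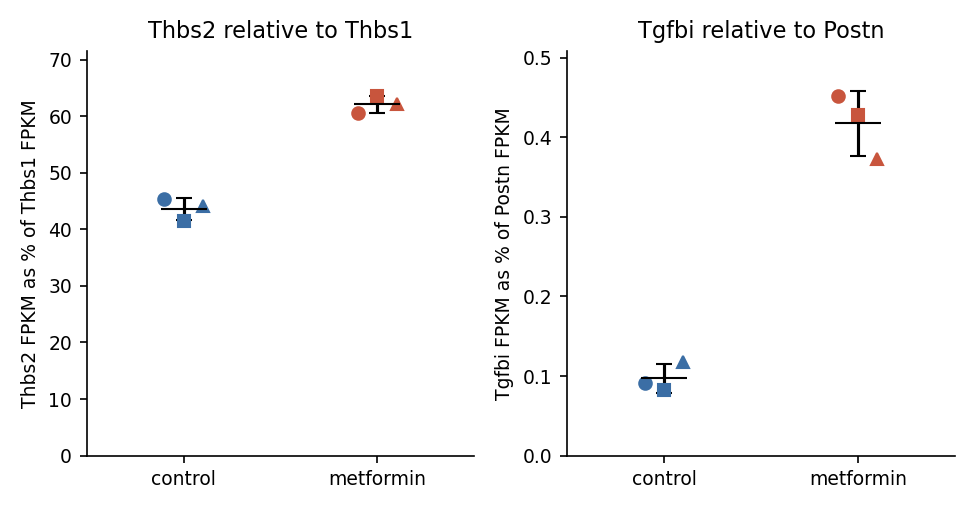
FPKM of Thbs2 as a percentage of Thbs1 and of Tgfbi as a percentage of Postn in each sample. Blue symbols are controls, red symbols are metformin samples, symbol shape gives the replicate, and the black line and bar are the mean and SD of 3 samples. Thbs2 relative to Thbs1 was 41.5% to 45.3% in controls and 60.5% to 63.6% with metformin.

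Periostin and the TGF-beta induced protein are built from the same fasciclin domains. Periostin, named for the periosteum, binds collagen and brings BMP1 to lysyl oxidase, which crosslinks collagen. Postn (chromosome 3, 54361109 to 54391037, plus strand) had 807, 566 and 505 FPKM in control replicates 1, 2 and 3. In metformin replicates 1, 2 and 3 it had 606, 620 and 629 FPKM. Control replicate 1 was the highest of all 6 samples and control replicates 2 and 3 the lowest, so the metformin samples lay between them. The log2 fold change was 0.012 (standard error 0.18, 95% interval -0.42 to 0.44, adjusted p = 0.970). Without control replicate 1 it was 0.21, and it still did not pass (adjusted p = 0.0728).

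Tgfbi, a secreted integrin ligand first described as a TGF-beta response gene, was a rare transcript with the largest fold of the members (chromosome 13, 56609523 to 56639562, plus strand). It had 51, 37 and 44 reads in control replicates 1, 2 and 3, which are 0.741, 0.468 and 0.594 FPKM. In metformin replicates 1, 2 and 3 it had 205, 218 and 172 reads, which are 2.74, 2.65 and 2.34 FPKM. Every metformin sample was above every control. The log2 fold change was 1.16 on the log2(FPKM + 1) scale (standard error 0.11, 95% interval 0.91 to 1.41, adjusted p = 0.000557). That scale understates the change of so low a gene: with a pseudocount of 0.1 the log2 fold change was 1.95 and with voom on the recovered reads it was 2.12. Even with metformin, Tgfbi stayed at 0.452%, 0.428% and 0.372% of the Postn level in replicates 1, 2 and 3, against 0.0918%, 0.0826% and 0.117% in control replicates 1, 2 and 3. The mean log2 ratio, taken with 1 added to each FPKM, was higher by 1.15 (exact two-sided permutation test, p = 0.1, the smallest possible), and by 1.94 with 0.1 added instead.

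Cthrc1, a secreted protein that limits collagen deposition and acts in Wnt and planar cell polarity signalling, was practically undetected (chromosome 15, 39076932 to 39087121, plus strand). It had 2 reads in metformin replicate 1 and 0 in the other samples, where 3 reads would be 0.0864 to 0.103 FPKM over the samples. It was therefore not tested, and no fold is given.

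**Figure D3:**
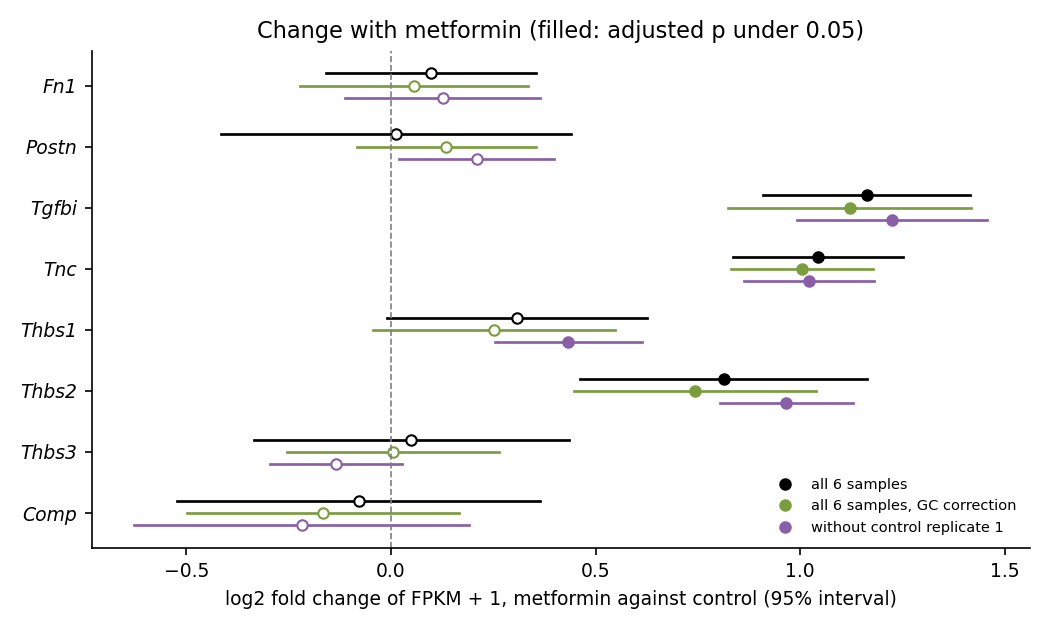
Log2 fold change of FPKM + 1 with its 95% interval for the 8 tested members, with all 6 samples (black), with a correction for GC content (green) and without control replicate 1 (purple). Filled circles have an adjusted p-value under 0.05. Tgfbi, Tnc and Thbs2 are filled in all 3 fits, and Thbs1 only without control replicate 1.

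Control replicate 1 touched the members unequally. On the log2 scale it lay 0.59 above the mean of control replicates 2 and 3 for Postn, whose longest transcript has a GC content of 36.3%. It lay 0.46 above for Thbs2 (48.4% GC), 0.38 above for Thbs1 (49.9%), 0.19 above for Tgfbi (53.3%) and 0.083 above for Fn1 (53.5%). For Tnc (52.5%), Thbs3 (54.0%) and Comp (59.9%) the difference was -0.064, -0.55 and -0.42. A correction removed the trend with GC content within each library, and with it the overall offset of the library. Over all tested genes it shifted the log2 fold change by a median of -0.054. The log2 fold changes were then 1.00 for Tnc, 0.74 for Thbs2 and 1.12 for Tgfbi, all still called. They were 0.25 for Thbs1, 0.14 for Postn and 0.057 for Fn1, none called. Over all tested genes the calls were 1670 higher and 1177 lower, and with this correction 2062 higher and 2433 lower.

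The promoters of the 3 members that rose are shown to let their sequences be compared beside these values. The 250 bases before the RefSeq transcription start (GRCm38.p6), 5′ to 3′ on the strand of the gene, were read from chr4:64047016-64047265 (minus strand) for Tnc, chr17:14694263-14694512 (minus strand) for Thbs2 and chr13:56609336-56609585 (plus strand) for Tgfbi, and capitals mark a match to TATAAA on either strand:
Tnc: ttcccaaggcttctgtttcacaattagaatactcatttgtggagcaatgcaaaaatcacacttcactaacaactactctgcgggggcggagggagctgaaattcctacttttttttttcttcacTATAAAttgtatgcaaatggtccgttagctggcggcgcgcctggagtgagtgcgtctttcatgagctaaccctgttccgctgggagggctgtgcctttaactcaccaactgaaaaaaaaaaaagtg
Thbs2: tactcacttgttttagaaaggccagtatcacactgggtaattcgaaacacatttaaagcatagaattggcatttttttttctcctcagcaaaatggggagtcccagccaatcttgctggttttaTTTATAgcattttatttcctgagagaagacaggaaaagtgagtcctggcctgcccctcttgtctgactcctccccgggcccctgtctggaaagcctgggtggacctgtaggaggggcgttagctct
Tgfbi: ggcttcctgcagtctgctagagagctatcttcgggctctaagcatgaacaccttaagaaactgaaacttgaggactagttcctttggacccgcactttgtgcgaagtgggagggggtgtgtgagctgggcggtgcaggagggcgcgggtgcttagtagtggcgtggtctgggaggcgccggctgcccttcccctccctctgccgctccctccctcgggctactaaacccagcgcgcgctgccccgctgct
The match begins 126 bases before the start in Tnc and, on the opposite strand, 126 bases before it in Thbs2. For Tnc this is the outer one of the listed starts. From the inner start, 64046936, the same match begins 205 bases before. Only these exact letters were searched, and TATAAA on either strand is found in 12.4% of the 32851 windows of this length. The Thbs2 start used here, 14694262, lies outside the gene span given above, which ends at 14694235. The 50 bases after that start were not found as 1 stretch in any GENCODE M21 transcript of Thbs2. The letters TGANTCA (AP-1, in 6.75% of all windows), GGAATG (TEAD, 12.6%), TGTGGT (Runx, 14.0%) and the CArG box of serum response factor (1.47%) were searched on both strands and were not in these 3 windows. GC content was 44.8% for Tnc, 46.8% for Thbs2 and 62.4% for Tgfbi. Windows were listed for 5 of the 9 members, the others being Postn and Thbs3, and among the latter Postn had TATAAA 26 bases before 1 of its starts. That start, 54361107, lies just outside the listed gene, which begins at 54361109.

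Genes that work with these proteins were taken from 5 lists, with 81 genes in the table, of which 59 were tested. Of those, 21 passed as higher, 8 as lower and 30 in neither direction, beside 13.2% and 9.28% of all tested genes. Beside the tenascin relative above, 29 other matricellular genes were in the table and 18 were tested. Of these, 8 were higher and 2 were lower, with a median log2 fold change of 0.27. The largest rises were those of the CCN genes Cyr61, from 152 ± 27.1 to 685 ± 29.1 FPKM (log2 fold change 2.18, adjusted p = 0.000206), and Ctgf, from 68.8 ± 6.72 to 207 ± 6.23 FPKM (1.58, adjusted p = 0.000165). Both encode secreted proteins that bind integrins and heparan sulphate. Spp1, which encodes osteopontin, a phosphoprotein of bone mineral, was lower (7703 ± 989 to 2704 ± 23.4 FPKM, log2 fold change -1.50, adjusted p = 0.000471), as was Spon2 (-0.61, adjusted p = 0.00631). The call of Spp1 was lost with no filter on low values (adjusted p = 0.198).

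The receptor list holds integrin subunits, CD36, CD47, syndecans, CD44, calreticulin and LRP1. Of 14 tested genes 7 were higher and 4 were lower, with a median log2 fold change of 0.28. Among all tested genes 13.2% were higher and 9.28% lower. Itgav, the subunit shared by receptors for fibronectin, periostin and tenascin-C, went from 11.8 ± 3.65 to 25.9 ± 0.24 FPKM (SD, n = 3, log2 fold change 1.10, adjusted p = 0.00746). Lrp1, an endocytic receptor for thrombospondins, had a log2 fold change of 0.81 (adjusted p = 0.0122). The β subunits that pair with αv moved the other way where called, with -0.87 for Itgb8 (adjusted p = 0.0153), -0.80 for Itgb3 (adjusted p = 0.00261) and -0.64 for Itgb5 (adjusted p = 0.00365), apart from Itgb1, which was higher by 0.72 (adjusted p = 0.0203). Itga5, which with Itgb1 forms the classical fibronectin receptor, had a log2 fold change of 0.21 and was not called (adjusted p = 0.156). The calls of Lrp1 and Itgb8 were lost without metformin replicate 1 (adjusted p = 0.0617 and 0.0670 at most) or 2. Itgb8 was scarce, with 1.35 ± 0.54 FPKM in the controls and 0.27 ± 0.12 FPKM with metformin (SD, n = 3). It reached the mean of 0.5 FPKM needed for testing only through the controls, so its call carries little weight.

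Of 15 tested genes of the TGF-beta pathway, 4 were higher and 2 were lower, with a median of 0.025. The shares over all tested genes were 13.2% higher and 9.28% lower. Among the ligands Tgfb3 rose by 0.79 (adjusted p = 0.0137), while Tgfb1 (-0.46, adjusted p = 0.281) and Tgfb2 (-0.21, adjusted p = 0.213) were not called. Ltbp1, which stores latent TGF-beta in the matrix, rose by 0.79 (adjusted p = 0.00297). The feedback inhibitor Smad7 was higher by 1.08 (adjusted p = 0.00730). The co-receptor gene Tgfbr3 (-0.63, adjusted p = 0.0198) and Smad3 (-0.29, adjusted p = 0.0408) were lower, and the call of Smad3 held in 8 and that of Tgfbr3 in 11 of the 14 other fits.

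Proteases, crosslinking enzymes and Wnt partners of the class were mostly not called. The same held for all tested genes, of which 13.2% were called higher and 9.28% lower. Of 11 tested genes 1 was higher and 0 were lower by limma-trend or by voom (at an unadjusted p-value under 0.05, 0 by limma-trend and 1, Mmp14, by voom), with a median log2 fold change of -0.081. The one was Adamts1, a protease that cleaves thrombospondins (0.35, adjusted p = 0.0274), whose call held in 7 of the 14 other fits. Lox, the lysyl oxidase that periostin helps to activate, had -0.29 (adjusted p = 0.201) and Bmp1 had 0.030 (adjusted p = 0.860), neither of them called.

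**Figure D4:**
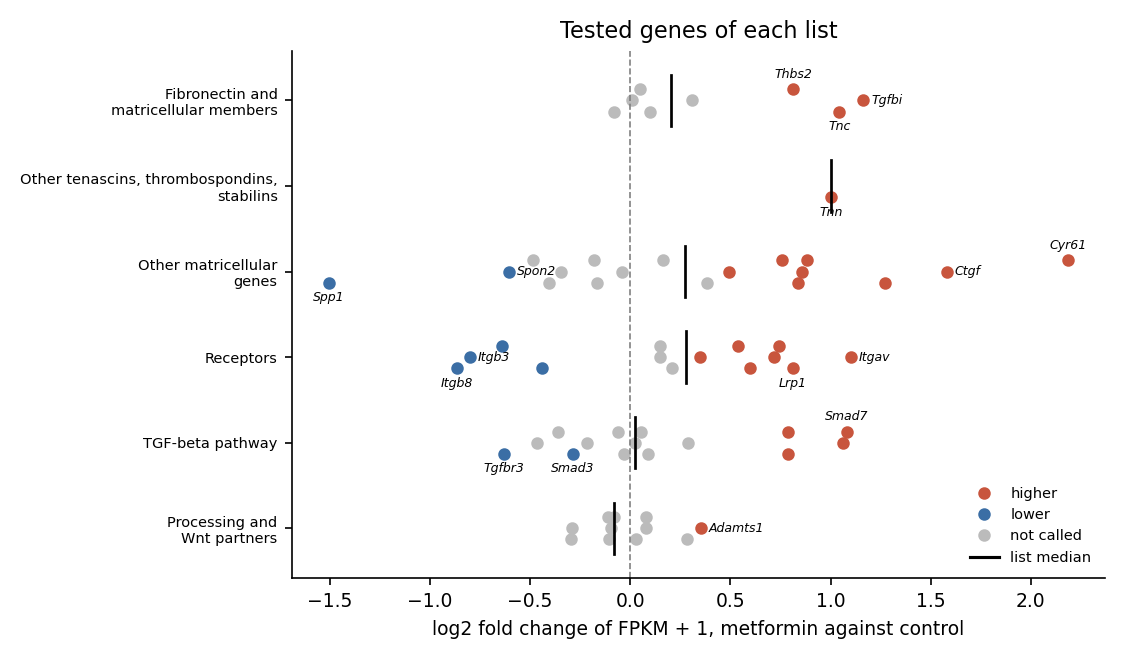
Log2 fold change of FPKM + 1 (metformin against control) of every tested gene in each list, with 1 point per gene. Red points were called higher, blue points lower and grey points not called, and black lines are list medians. Among the genes shown, Cyr61 has the largest positive value (2.18) and Spp1 the largest negative one (-1.50). The lists of cell type markers are not shown.

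The genes most like the 3 most abundant members over the 6 samples were named by Pearson's r of log2(FPKM + 1), given as a description over samples that share their groups and library depths. For Fn1 these were Atp8b2 (r = 0.987) and Kif26b (r = 0.979), and only 4 of 7451 genes had an r above 0.95. For Postn they were Tgfbr1 (0.998) and Rpl26 (0.997), with 239 genes above 0.95. Like Postn, both were highest in control replicate 1. Tgfbr1 had 21.5 FPKM there, against 13.9 and 12.2 FPKM in control replicates 2 and 3. Rpl26 had 596 FPKM there, against 313 and 269 FPKM. For Thbs1 they were Mllt11 (0.999) and Copa (0.998), with 206 genes above 0.95.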

How the data were processed

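RNA sequencing (Illumina TruSeq libraries) was compared between 3 control and 3 metformin samples. The authors deposited 1 table of 54532 genes. It names no unit. Multiplied by the listed gene length, 100% of the values above 0 came out as whole numbers of 1 smallest unit per library (tolerance 0.01), so the deposited values were taken as FPKM, scaled by the authors to an effective library size, and whole reads were recovered. The submitters' processing notes name Bowtie 0.12.2, mm8 and mm9, but 53499 gene coordinates equal those of GENCODE M21 (GRCm38). The counting tool and its use of strand are not given in the sources used here. The authors tested with DESeq2. No column of other samples was present.

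Because the table holds FPKM, limma 3.58.1 (R 4.3.3, empirical Bayes with an intensity trend) was run on log2(FPKM + 1) over the 12681 genes averaging 0.5 FPKM or more, with Benjamini-Hochberg adjustment and a threshold of 0.05. The members and lists were chosen with earlier results of these data known. All members are named, with the 2 largest called changes each way per list and, for likeness, the 2 genes closest to each of the 3 most abundant members among genes of at least 5 FPKM. Itgb5, Itgb1, Itga5, the TGF-beta ligands, Ltbp1, Lox, Bmp1, Mmp14, Col1a1, Col1a2, Ibsp and Dmp1 were named after their values were seen. So were Runx2, Sp7, Alpl, Bglap, Col10a1 and Cd68. A gene that this rule names is not reported here. No member shared a transcript stretch of 200 bases at 95% identity with another gene (BLAST+ 2.17.0). The median chi-square per gene was 2.81 to 13.0 between control replicates and 1.14 to 1.24 between metformin replicates. Counting alone gives 0.455, so all were kept. The study calls its samples biological replicates. Fits were tested on simulated data with the same spread beyond counting for every gene and sample. The unequal spread of the replicates here was therefore not covered. Alternatives were another pseudocount, total-read scaling, 2 other filters, voom, a replicate block, a GC correction (spline with 5 degrees of freedom), a log2 limit of 1 and leaving out each sample.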

Additional observations from a re-analysis of the deposited data

How the results depend on the processing

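Of the members, Tnc and Tgfbi kept their call in all 14 other fits and Thbs2 in 13. Members called higher were 3 and ranged from 2 to 4 over the fits that left out a sample, and no member was called lower in any fit. Over those fits log2 fold changes were from 0.73 to 0.97 for Thbs2, from 0.22 to 0.43 for Thbs1, from -0.13 to 0.21 for Postn, from -0.13 to 0.18 for Thbs3 and from -0.22 to 0.065 for Comp. Postn was -0.016 with scaling by total reads. Over all tested genes the higher calls ranged from 938 to 2969 and the lower calls from 495 to 2590 when a sample was left out, against 1670 and 1177. With a log2 limit of 1 they were 468 and 168, and 2 members, Tgfbi and Tnc, were called higher. In the 5 lists the 21 higher genes became 11 to 25 and the 8 lower genes 4 to 13 when a sample was left out, with both maxima without control replicate 1. With the log2 limit the lists had 7 and 1, and with the GC correction 15 lower, where all tested genes had 2433 lower. The limit lowers counts by its construction, and for the other moves the cause was not tested.

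The fit with the replicate block gave 1161 higher and 698 lower genes, and with the block and the GC correction 1888 were lower. The block changed no member's call. After subtraction of group means, the correlation across genes between samples of equal number was -0.053, 0.00027 and -0.055, so the numbers were not taken to pair them. The members with the fewest reads were Tgfbi, Comp and Cthrc1, with at most 218 in a sample, and only Cthrc1 was too low to be tested.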
